A study of Mus musculus with 12 samples.

Results

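The interferon stimulated genes described here are 38 genes of the mouse whose transcription is known to be raised by type I interferon, taken as a fixed list of symbols out of 34989 genes measured. They were followed in 12 RNA-seq libraries of mouse melanoma, labelled as tumor associated macrophages. All 38 had enough counts to be tested, among 16027 genes tested in all. The study set each of 2 agents aimed at myeloid cells, and both together, against untreated tumors.

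The libraries formed 4 groups of 3. CD40 agonist mice received FGK4.5, an activating antibody against the receptor CD40, dosed intraperitoneally at 10 mg/kg once every 3 days, for 10 doses or until the tumor endpoint. CSF1Ri mice received chow with PLX6134 at 600 mg/kg, an agent that the labels call a CSF1R inhibitor. Combination mice received both agents. Control mice received normal chow, and the labels name PBS as the vehicle of the antibody in some experiments without saying in which. Treatment began 30 days after local tumor induction. It ended after 30 days, or earlier when a tumor measured 2 cm3. All 4 groups carried the same transgenic tumor model, in which Cre is driven in melanocytes. Their full genotype is not reported here. Every library pooled at least 3 tumors, and the sources used here name no gate by which cells were sorted.

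Type I interferons bind a receptor made of IFNAR1 and IFNAR2, which signals through JAK kinases to a transcription factor complex that holds STAT2 and IRF9. That complex binds interferon stimulated response elements near its target genes, and the targets restrict viral replication, sense viral nucleic acid or feed back on the pathway. Interferon gamma, made chiefly by T cells and NK cells, uses another receptor and factors that bind gamma activated sequences, and many genes answer to both. In tumors, macrophages and dendritic cells are known targets of both kinds of interferon and known sources of type I interferon.

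Promoter windows from 250 bases before to 50 bases after a gene's start were held for 27 of the 38 genes (RefSeq, GRCm38.p6). The windows below are of the gene with the largest difference among those described in full in each of 5 role groups, plus Ifit3, the member that passed a test. They are printed along the gene's own strand, 5′ to 3′, and capitals mark matches on either strand to the core of the interferon stimulated response element, which is GAAA, any 2 bases and again GAAA.
Ifit3, chr19:34583279-34583578, plus strand: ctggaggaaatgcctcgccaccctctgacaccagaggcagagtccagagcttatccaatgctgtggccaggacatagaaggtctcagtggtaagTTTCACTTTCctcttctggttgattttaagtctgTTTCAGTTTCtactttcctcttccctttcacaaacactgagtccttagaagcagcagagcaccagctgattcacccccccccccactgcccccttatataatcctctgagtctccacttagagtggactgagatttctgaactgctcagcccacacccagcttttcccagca
Ifit2 first window, chr19:34550444-34550743, plus strand: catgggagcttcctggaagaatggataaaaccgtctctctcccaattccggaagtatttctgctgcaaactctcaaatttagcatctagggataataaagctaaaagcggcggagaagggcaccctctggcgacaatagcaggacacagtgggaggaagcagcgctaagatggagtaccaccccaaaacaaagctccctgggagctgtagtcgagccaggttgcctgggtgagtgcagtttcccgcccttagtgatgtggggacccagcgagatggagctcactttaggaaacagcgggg
Ifit2 second window, chr19:34550838-34551137, plus strand: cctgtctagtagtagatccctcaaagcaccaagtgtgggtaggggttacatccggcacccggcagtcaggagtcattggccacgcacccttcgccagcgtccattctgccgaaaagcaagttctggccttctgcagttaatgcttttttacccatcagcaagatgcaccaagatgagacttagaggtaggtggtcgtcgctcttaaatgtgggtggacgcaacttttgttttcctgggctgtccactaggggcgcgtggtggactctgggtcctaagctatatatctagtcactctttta
Rsad2, chr12:26456403-26456702, minus strand: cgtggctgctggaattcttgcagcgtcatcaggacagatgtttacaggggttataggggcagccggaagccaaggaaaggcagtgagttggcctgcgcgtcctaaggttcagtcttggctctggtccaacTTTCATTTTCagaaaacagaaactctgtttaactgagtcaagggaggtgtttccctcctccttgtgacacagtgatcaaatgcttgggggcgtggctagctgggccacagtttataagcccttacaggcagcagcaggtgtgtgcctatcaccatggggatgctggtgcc
Oas3, chr5:120777610-120777909, minus strand: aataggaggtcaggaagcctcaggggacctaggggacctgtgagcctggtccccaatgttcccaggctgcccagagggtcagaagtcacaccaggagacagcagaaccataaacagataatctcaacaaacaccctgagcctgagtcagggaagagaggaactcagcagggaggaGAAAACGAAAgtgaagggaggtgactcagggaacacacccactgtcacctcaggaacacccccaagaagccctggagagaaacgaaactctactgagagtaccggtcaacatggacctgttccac
Trim25, chr11:88999153-88999452, plus strand: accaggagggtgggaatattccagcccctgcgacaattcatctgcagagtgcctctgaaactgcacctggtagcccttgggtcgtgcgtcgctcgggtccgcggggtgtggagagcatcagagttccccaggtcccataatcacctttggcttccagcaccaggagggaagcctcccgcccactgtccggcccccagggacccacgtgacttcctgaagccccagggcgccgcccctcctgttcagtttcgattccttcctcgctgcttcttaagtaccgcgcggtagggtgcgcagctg
Lgals3bp, chr11:118401910-118402209, minus strand: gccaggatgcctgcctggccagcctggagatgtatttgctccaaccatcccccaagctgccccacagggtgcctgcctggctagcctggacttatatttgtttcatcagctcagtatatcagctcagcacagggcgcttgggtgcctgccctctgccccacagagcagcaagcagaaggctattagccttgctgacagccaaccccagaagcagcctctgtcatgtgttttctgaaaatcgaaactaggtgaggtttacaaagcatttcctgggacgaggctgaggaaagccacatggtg

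Ifit3 held 2 such matches, Rsad2 and Oas3 held 1 each, and neither window of Ifit2 nor those of Trim25 and Lgals3bp held any. The other 11 genes, with no window to show, were Oas2, Mx1, Mx2, Dhx58, Zbp1, Ifi204, Usp18, Parp9, Parp14, Rtp4 and Ifi27l2a. Over the list, 13 of the 27 genes with a window (48.1%) held the response element core on either strand, against 1079 of 27025 genes with a window (3.99%). TTCNNNGAA, the core of the gamma activated sequence, was held by 7 of the 27 genes (25.9%), against 9.55% of all genes with a window. The motifs can overlap, as they do in Bst2 and Ifitm3, where matches of both kinds share bases. A match says only that these letters are present, and no binding was measured.

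**Figure D1:**
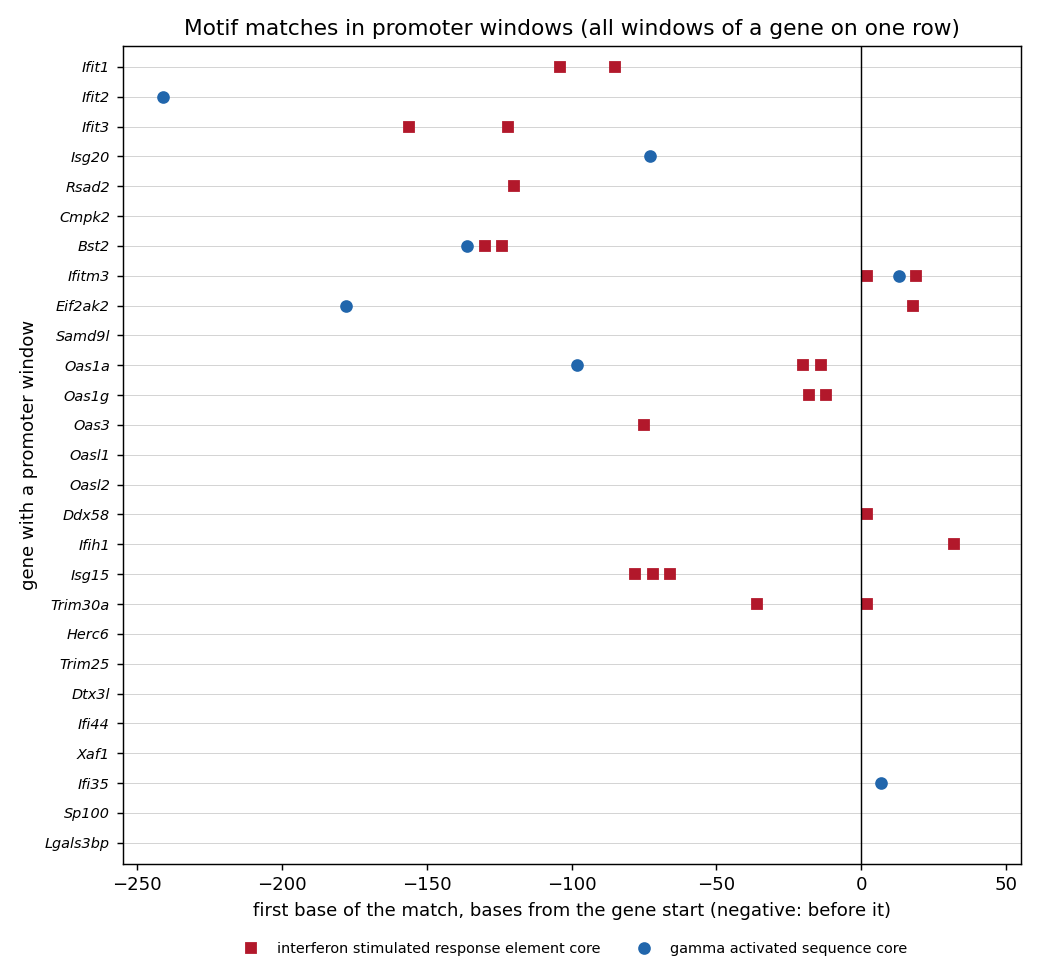
Position of each match to the response element core (squares) and TTCNNNGAA (circles) in the promoter windows of the 27 genes, in bases from the gene start on the horizontal axis. The pairs in Ifit1 and Ifit3 and the 3 matches of Isg15 lie before the start, and those of Ifitm3, Eif2ak2, Ddx58 and Ifih1 to the response element core lie after it.

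In Control tumors the 38 genes spanned a wide range of levels per length. Ifitm3, which blocks the fusion of viruses with host membranes, was the most abundant at a mean of 3134 TPM (2897 to 3311 over 3 libraries). Ifi27l2a followed at 735.7 TPM (690.8 to 792.1), so these neighbours in the order did not overlap. Sp100, a protein of nuclear bodies, came next at 279.2 TPM (236.4 to 341.9). Ifi44 was the least abundant at 0.399 TPM. The IFIT genes were of middling abundance, at 44.6 TPM for Ifit3, 23.5 for Ifit1 and 17.7 for Ifit2.

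Library totals ran from 26316328 to 39818657 estimated counts. Csf1r, a macrophage marker and the stated target of CSF1Ri, was present in every library at 615.5 to 1208 CPM (counts for every 1000000 of the TMM-scaled library). Adgre1, Cd68 and Lyz2 were also present in every library. C1qa, of resident macrophages, lay at 0.0679 to 108.7 CPM. Libraries of bulk RNA cannot tell fewer cells of a type from less RNA per cell. Combination replicate 2 stood apart from its group, and CSF1Ri replicate 3 from its own. CD40 agonist replicate 1 stood apart on the third principal component of log2 CPM, at -116, where every other library lay between -23.1 and 44.9. In combination replicate 2 the summed level of 8 classical monocyte markers was 17250 CPM, against 5628 and 7404 CPM in combination replicates 1 and 3, with 0 of the 8 markers at 0. Its 8 conventional dendritic cell markers summed to 100.0 CPM, against 1105 and 1167 CPM in the same replicates. The 12 macrophage markers summed to 35420 CPM in combination replicate 2, against 14740 and 18110 CPM in those replicates. In CSF1Ri replicate 3 the 9 neutrophil markers summed to 774.6 CPM, against 3189 and 2345 CPM in CSF1Ri replicates 1 and 2, and the conventional dendritic cell markers to 927.1 CPM, against 418.8 and 511.5 CPM. Its 12 macrophage markers summed to 22860 CPM, against 28460 and 27850 CPM. Whole groups differed as well. Classical monocyte markers summed to 6906 to 11160 CPM with CSF1Ri, 5628 to 17250 CPM with the combination and 4860 to 6124 CPM in Control. B cell markers summed to 153 to 193.6 CPM with CSF1Ri, 109.1 to 203.5 CPM with the combination and 274.7 to 311.5 CPM in Control. T cell markers are given below with Ifng. The 8 patrolling monocyte markers summed to 1627 to 1806 CPM with CSF1Ri and 1397 to 2150 CPM with the combination, against 2708 to 2850 CPM in Control, and 4 of them (Pou2f2, Ace, Cd300e and Cx3cr1) fell with the combination (edgeR, adjusted p below 0.05). The 11 mast cell, basophil and eosinophil markers summed to 373.5 to 462.4 CPM with CSF1Ri and 246.1 to 357.7 CPM with the combination. In Control they summed to 87.8 to 134.3 CPM. With the combination against Control, 5 of the 10 tested lay above 0 and 5 below, and 3 (Cpa3, Fcer1a and Mcpt8) were called higher. That comparison called 0.774% of all genes. Against CSF1Ri, 3 (Il5ra, Ccr3 and Ear6) were called lower with the combination and 0 higher, where 1.94% of all genes were called. The part of these cells in the results was not tested. Counts and medians over the list that involve the combination are also given without combination replicate 2, and those that involve CSF1Ri without CSF1Ri replicate 3 where they are medians or counts on one side of 0.

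Taken library by library, the list stood lowest in the CD40 agonist group and highest in a single combination library. The median log2 difference of the 38 genes from the Control mean was -0.85, -0.49 and -0.40 in the 3 CD40 agonist libraries. It was -0.07, -0.19 and -0.42 in CSF1Ri, and -0.35, 0.79 and -0.19 in the combination. The Control libraries themselves stood at 0.07, -0.09 and 0.03. Every CD40 agonist library thus lay below every Control library, whereas the combination group had 1 library above and 2 below all of Control. The summed level of the 38 genes was 7317 CPM in combination replicate 2, and 2646 to 4045 CPM in the other 11 libraries. Combination replicate 2 was the highest of all 12 libraries for 29 of the 38 genes, as it was for 12.3% of all genes tested. The exceptions were Ifit1, Ifit3, Rsad2, Isg20, Eif2ak2, Oasl1, Mx1, Mx2 and Trim25. Within its group it was the highest for 37 of 38, Rsad2 excepted, where it was for 34.2% of all genes.

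**Figure D2:**
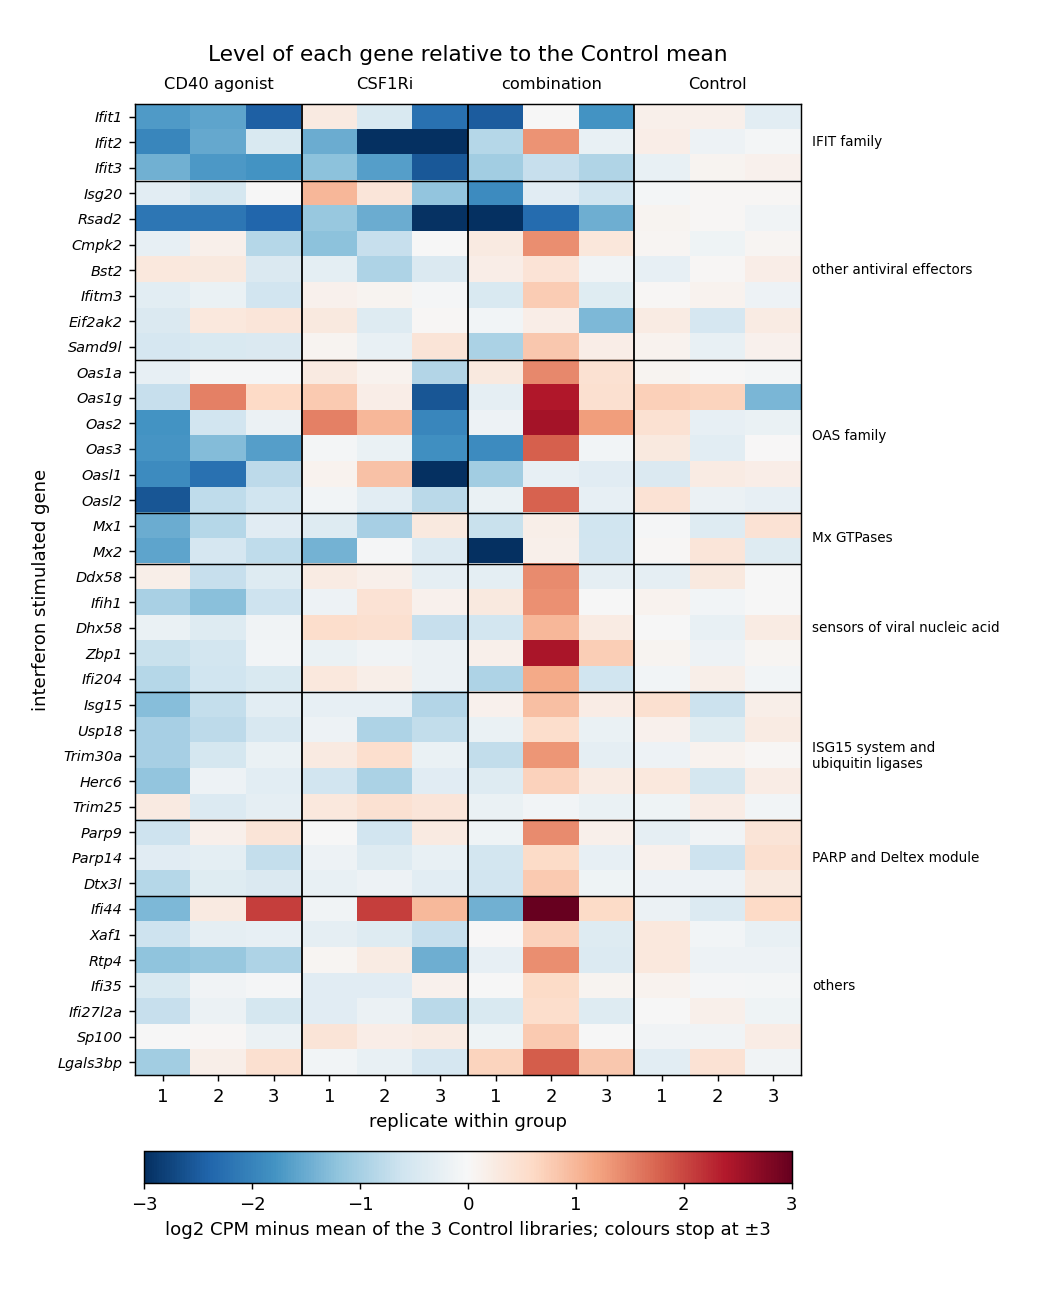
Log2 CPM of each of the 38 genes (rows, by role) in each of the 12 libraries (columns, by group and replicate), less the mean of the 3 Control libraries. Ifit3 and Rsad2 are blue in all 9 treated libraries, and combination replicate 2 is red for most other genes.

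Across the 4 groups, 1 of the 38 genes passed the test. Ifit3 differed among the groups (edgeR quasi-likelihood F-test, any difference, adjusted p = 0.0321), in a test that called 1.2% of all genes. No single comparison of 2 groups and no interaction of the agents called a member. At an unadjusted p below 0.05 the any-difference test held 11 of the 38 genes, against 16.3% of all genes. P-values here measure the spread between pooled tumor samples, and the labels do not say how those samples were separated. The comparisons with Control all use the same 3 Control libraries.

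With the CD40 agonist, 33 of 38 genes had a fitted log2 difference from Control below 0, where 49.1% of all genes did. The median over the list was -0.49, against 0.01 over all genes. edgeR called 0 members, and 0% of all genes. The unadjusted p was below 0.05 for 5 members, all lower (Rsad2, Ifih1, Usp18, Ifit1 and Ifit3), against 3.29% of all genes lower and 7.68% in either direction. In 18 of 38 genes every CD40 agonist library lay below every Control library, which held for 8.74% of all genes, and in 0 of 38 every one lay above (8.34% of all genes). Parp9, Eif2ak2, Ifi44, Bst2 and Oas1g were the 5 genes with a difference above 0. Without CD40 agonist replicate 1 the median was -0.38, and 33 of 38 genes lay below 0.

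With CSF1Ri, the list lay closer to Control, with 26 of 38 genes below 0 (51.3% of all genes) and a median of -0.24 (-0.01 over all genes). Without CSF1Ri replicate 3 the median was -0.17 and 23 of 38 lay below 0. edgeR called 0 members, and 0.0125% of all genes. Below an unadjusted p of 0.05 were 3 members, the lower genes Rsad2, Ifit2 and Ifit3, against 4.78% of all genes lower and 9.47% in either direction. The libraries did not overlap with Control for 6 lower members (Rsad2, Ifit2, Ifit3, Bst2, Xaf1 and Ifi27l2a), against 8.55% of all genes, and for 1 higher member, Trim25, against 7.23%.

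With the combination, 11 of 38 genes lay below 0 (49.8% of all genes) and the median was 0.21 (0.00 over all genes). Without combination replicate 2 the median was -0.26, and 29 of 38 genes lay below 0. edgeR called 0 members, and 0.774% of all genes. The unadjusted p was below 0.05 for 5 members (14.8% of all genes), of which Zbp1, Lgals3bp and Oas1a were higher (8.32% of all genes) and Rsad2 and Ifit3 lower (6.48%). The libraries did not overlap with Control for 4 higher members (Zbp1, Lgals3bp, Oas1a and Cmpk2; 10.8% of all genes) and 3 lower ones (Rsad2, Ifit3 and Isg20; 11.5%). With that library left out, the unadjusted p was below 0.05 for 5 members, all lower (Rsad2, Ifitm3, Ifit1, Ifi204 and Ifit3). Of the 16831 genes tested in that fit, 14% were below 0.05 in either direction. The libraries then did not overlap with Control for 13 lower members and the same 4 higher ones, against 34.7% of all genes in either direction.

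Set against the single agents, the combination stood higher for most of the list with all 3 of its libraries, and against CSF1Ri it did not once combination replicate 2 was left out. Against the CD40 agonist 35 of 38 genes were above 0 (49.9% of all genes), with a median of 0.74, where edgeR called 0 members and 0% of all genes. There 15 members had an unadjusted p below 0.05, all higher, against 4.68% of all genes higher and 9.05% in either direction. In 12 members every combination library lay above every CD40 agonist library (6.6% of all genes), and in 0 below (6.93%). Leaving out combination replicate 2 gave a median of 0.20 with 25 of 38 genes above 0. Then 3 members had an unadjusted p below 0.05, all higher (Ifih1, Zbp1 and Isg15), against 8.58% of all genes in either direction. The libraries then did not overlap for 12 higher members and 1 lower one, Isg20 (25% of all genes). Against CSF1Ri 29 of 38 genes were above 0 (51.2% of all genes), with a median of 0.49, where edgeR called 0 members and 1.94% of all genes. There 10 members had an unadjusted p below 0.05 (18.3% of all genes), 9 higher (10.6%) and Trim25 lower (7.71%). In 8 members every combination library lay above every CSF1Ri library (10.8%), and in Trim25 below (11.1%). Leaving out combination replicate 2 gave a median of -0.10 with 15 of 38 genes above 0, and 5 members were higher and 7 lower at an unadjusted p below 0.05 (18.6% of all genes). The libraries then did not overlap for 8 higher and 6 lower members (35.5% of all genes). Without CSF1Ri replicate 3 the median was 0.36, with 26 of 38 genes above 0.

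The interaction (combination less CD40 agonist, set against CSF1Ri less Control) was above 0 for 34 of 38 genes (51.3% of all genes), with a median of 0.88 on the log2 scale and 0.02 over all genes. edgeR called 0 members, and 0% of all genes. The unadjusted p was below 0.05 for 17 members, all above 0, against 4.64% of all genes above 0 and 8.14% on either side. Leaving out combination replicate 2 gave a median of 0.47 with 27 of 38 genes above 0. The unadjusted p was then below 0.05 for 6 members, all above 0, against 9.85% of all genes on either side. Without CSF1Ri replicate 3 the median was 0.85.

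**Figure D3:**
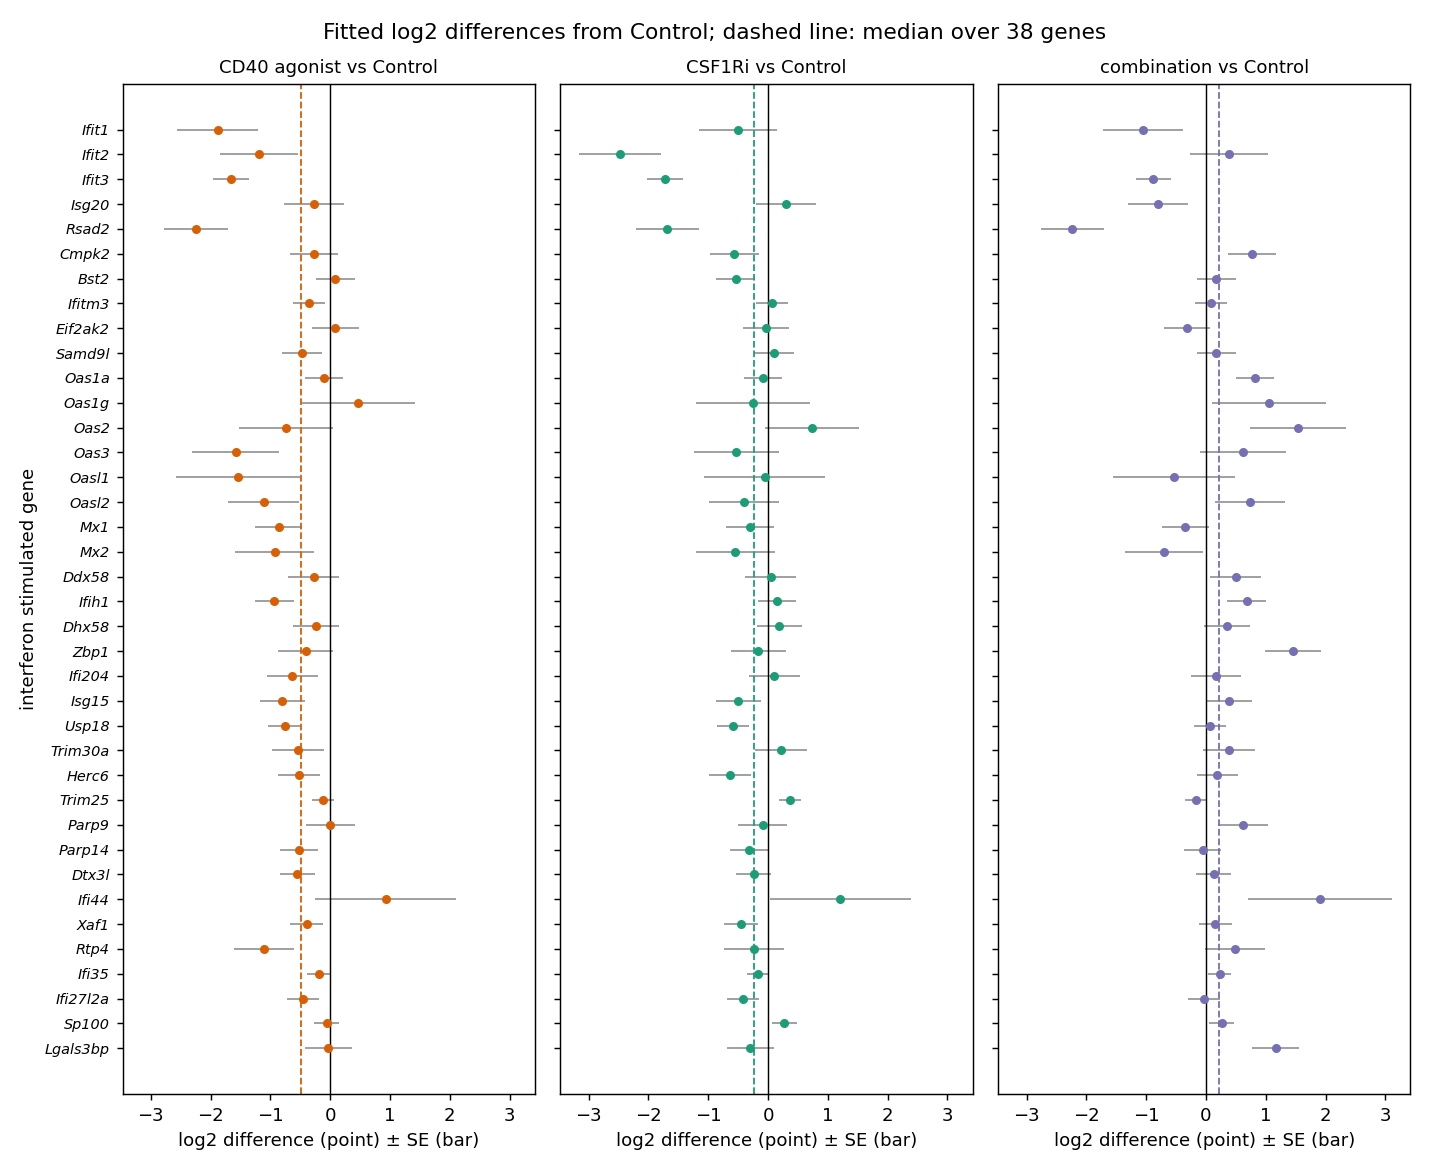
Fitted log2 difference from Control (horizontal axis, point) with its SE (bar) for each of the 38 genes in the CD40 agonist, CSF1Ri and combination groups. The dashed medians lie at -0.49, -0.24 and 0.21, and Rsad2 and Ifit3 lie left of 0 in all 3 panels.

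The IFIT proteins bind viral RNA and hold back its translation, and their genes lie side by side on chromosome 19. Ifit3 (ENSMUSG00000074896, chr19:34583531-34588731, plus strand, GRCm38) had 20.1, 16.4 and 15.6 CPM with the CD40 agonist, 23.1, 17.4 and 9.24 CPM with CSF1Ri, 26.6, 33.5 and 29.1 CPM with the combination, and 46.8, 58.1 and 59.6 CPM in Control. All 9 treated libraries lay below all 3 Control libraries, and the combination libraries lay above those of both single agents. Only Rsad2 shared the first pattern among the 38 genes, which 0.886% of all genes showed. The log2 difference of Ifit3 from Control was -1.66 ± 0.30 for the CD40 agonist, -1.73 ± 0.30 for CSF1Ri and -0.88 ± 0.29 for the combination (SE, edgeR adjusted p = 0.168, 0.0813 and 0.196). Its interaction was 2.5 ± 0.42 (edgeR adjusted p = 0.174). Without CSF1Ri replicate 3 the same test called Ifit3 lower with the CD40 agonist (-1.66, adjusted p = 0.0356) and with CSF1Ri (-1.46, adjusted p = 0.0282). It also called the interaction of Ifit3 (2.22, adjusted p = 0.0415). That library is not part of the CD40 agonist comparison, whose difference stayed at -1.66. Of all libraries left out in turn, it gave Ifit3 its lowest any-difference p (edgeR adjusted p = 0.011). The share of all genes called in that fit is not given here.

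The any-difference call of Ifit3 was held without combination replicate 2 and without CSF1Ri replicate 3, and was lost when any of the other 10 libraries was left out (edgeR adjusted p = 0.011 to 0.10 over the 12). Of the 31-base stretches of Ifit3 transcripts, 61.8% also occur in its near-copy Ifit3b, so the estimated counts could be divided between them. Ifit3b itself had 0.118 to 4.39 CPM with the CD40 agonist, 1.29 to 9.89 CPM with CSF1Ri, 2.30 to 4.68 CPM with the combination and 7.5 to 16.9 CPM in Control. With both genes summed, a choice made after seeing the data, the any-difference test still called the pair (edgeR adjusted p = 0.0268).

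Ifit1 (ENSMUSG00000034459, chr19:34640871-34650009, plus strand) and Ifit2 (ENSMUSG00000045932, chr19:34550694-34576419, plus strand) flank Ifit3 and varied more within groups. Ifit1 had 14.2, 15.2 and 8.40 CPM with the CD40 agonist, 55.1, 33.5 and 9.65 CPM with CSF1Ri, 8.09, 45.6 and 13.2 CPM with the combination, and 50.6, 51.3 and 37.0 CPM in Control. The CD40 agonist libraries all lay below Control, while CSF1Ri and the combination overlapped it, with log2 differences of -1.88 ± 0.68, -0.50 ± 0.66 and -1.06 ± 0.66 (SE). Ifit2 had 13.2, 17.6 and 37.2 CPM with the CD40 agonist, 18.3, 5.28 and 4.26 CPM with CSF1Ri, 28.6, 129.7 and 43.9 CPM with the combination, and 59.0, 46.3 and 49.5 CPM in Control. Both single-agent groups lay wholly below Control, and the combination straddled it. For Ifit2 the difference with CSF1Ri was -2.47 ± 0.68 (SE, edgeR adjusted p = 0.270) and the interaction was 4.04 ± 0.95 (adjusted p = 0.305).

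**Figure D4:**
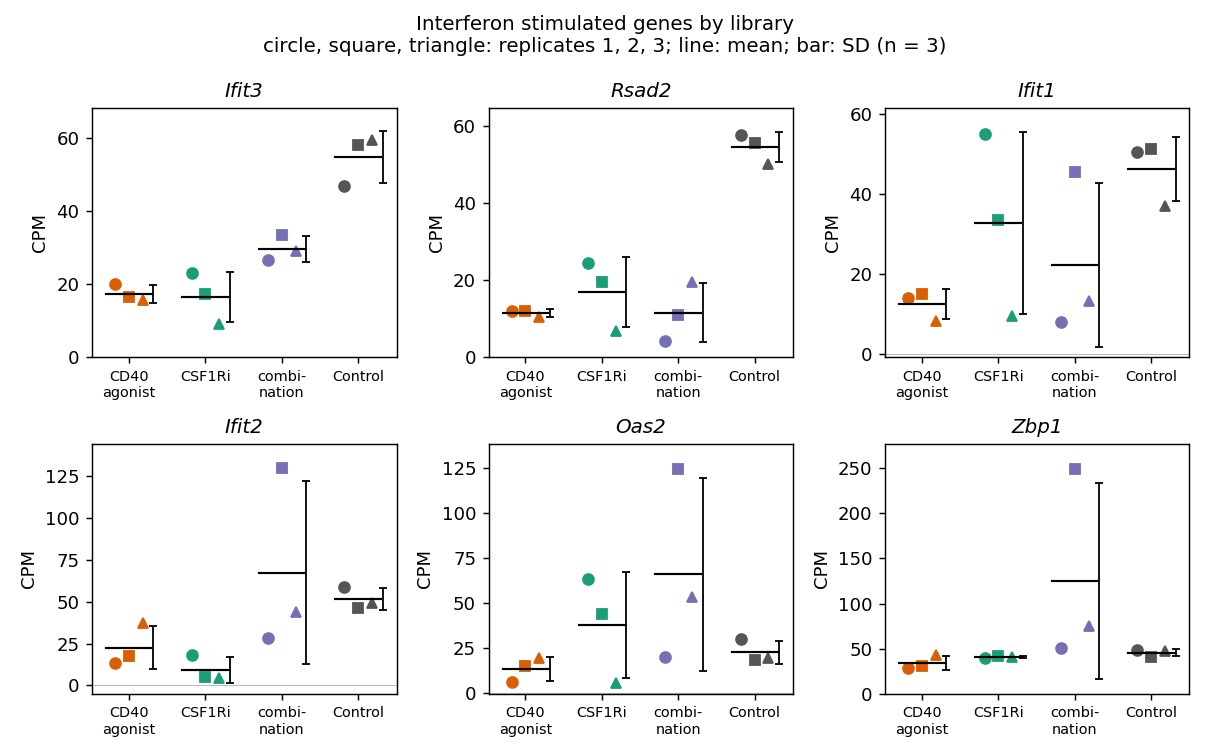
CPM (vertical axis) of 6 interferon stimulated genes in each library, by group, with the mean (line) and SD (bar) of 3 libraries. Rsad2 lies at 50.2 to 57.7 CPM in Control and at or below 24.5 CPM in all 9 treated libraries, whereas Zbp1 and Oas2 are highest in combination replicate 2.

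Rsad2 encodes viperin, which makes a chain-terminating nucleotide against viral polymerases. Rsad2 (ENSMUSG00000020641, chr12:26442746-26456452, minus strand) had 12.1, 11.99 and 10.4 CPM with the CD40 agonist, 24.5, 19.4 and 6.94 CPM with CSF1Ri, 4.27, 10.9 and 19.6 CPM with the combination, and 57.7, 55.5 and 50.2 CPM in Control. No treated library came near a Control library, and the treated groups overlapped one another. The log2 differences from Control were -2.25 ± 0.53, -1.68 ± 0.52 and -2.23 ± 0.53 (SE), and none passed the test (edgeR adjusted p = 0.359, 0.326 and 0.0834). It was also the one gene of the 38 for which combination replicate 2 was not the highest of its group. DESeq2 called Rsad2 lower in all 3 comparisons with Control, and the share of all genes that it called is not given here. For any difference, DESeq2 and the bias-adjusted edgeR fit called Rsad2. limma voom (adjusted p = 0.0566) and the edgeR fit with a replicate block (adjusted p = 0.168) did not.

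Cmpk2, a mitochondrial kinase that supplies the CTP that viperin uses, starts 12.75 kb from Rsad2 and is read in the other direction. Cmpk2 had 13.5, 17.8 and 8.95 CPM with the CD40 agonist, 6.86, 9.93 and 16.1 CPM with CSF1Ri, 19.6, 42.9 and 20.3 CPM with the combination, and 17.0, 14.8 and 16.9 CPM in Control. Unlike its neighbour it lay above Control in all 3 combination libraries and overlapped Control in the others. Its values are given because of that position, chosen after they were seen.

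Among the other antiviral effectors, Isg20, an exonuclease of viral RNA, had 13.4, 11.6 and 16.7 CPM with the CD40 agonist, 33.5, 21.6 and 7.40 CPM with CSF1Ri, 4.49, 13.3 and 11.2 CPM with the combination, and 16.1, 17.2 and 17.3 CPM in Control. The combination libraries lay below Control and those of CSF1Ri fell on both sides of it. Its log2 difference was -0.80 ± 0.51 with the combination and 0.30 ± 0.50 with CSF1Ri (SE). Eif2ak2, the kinase PKR, which stops translation on sensing double-stranded RNA, had 23.6, 39.6 and 41.2 CPM with the CD40 agonist, 38.8, 24.4 and 32.3 CPM with CSF1Ri, 29.9, 36.4 and 12.5 CPM with the combination, and 37.5, 22.6 and 38 CPM in Control. Bst2, or tetherin, which holds budding viruses on the cell, had 11.8, 11.8 and 7.09 CPM with the CD40 agonist, 7.74, 5.02 and 7.08 CPM with CSF1Ri, 10.9, 12.8 and 8.83 CPM with the combination, and 8.08, 9.71 and 11.1 CPM in Control. Groups overlapped for both, save that Bst2 lay below Control in every CSF1Ri library (-0.54 ± 0.33, SE, edgeR adjusted p = 0.665). Ifitm3 and Samd9l lay wholly below Control with the CD40 agonist, at 815.7 to 1064 CPM against 1104 to 1323 CPM and at 137.6 to 142.8 CPM against 165.7 to 210.9 CPM. Their fitted differences were -0.36 ± 0.27 and -0.47 ± 0.33 on the log2 scale (SE).

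The OAS enzymes make short chains of adenylate that switch on RNase L, which then cuts RNA. Of the 6 genes, 5 lay below 0 with the CD40 agonist (median -0.92), 5 with CSF1Ri (median -0.17) and 1 with the combination (median 0.78). With combination replicate 2 left out, 4 of the 6 lay below 0 with the combination (median -0.19). Without CSF1Ri replicate 3, 2 of the 6 lay below 0 with CSF1Ri (median 0.21). Oas3 (ENSMUSG00000032661, chr5:120753098-120777661, minus strand) had 10.2, 14.0 and 10.96 CPM with the CD40 agonist, 33.2, 29.8 and 9.65 CPM with CSF1Ri, 9.31, 119.5 and 32.8 CPM with the combination, and 42.5, 27.6 and 34.9 CPM in Control. The CD40 agonist libraries lay wholly below Control (-1.58 ± 0.73, SE, edgeR adjusted p = 0.652), and the combination ran from below the CD40 agonist libraries to far above Control. Its interaction was 2.73 ± 1.03 (edgeR adjusted p = 0.512), and 1.38 with combination replicate 2 left out.

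Oas2 (ENSMUSG00000032690, chr5:120730333-120749853, minus strand), the neighbour of Oas3 at 3.244 kb, had 6.38, 15.0 and 19.6 CPM with the CD40 agonist, 63.4, 43.9 and 5.66 CPM with CSF1Ri, 19.9, 124.3 and 53.2 CPM with the combination, and 30.2, 18.6 and 19.3 CPM in Control. CSF1Ri replicate 3 was the lowest of all 12 libraries and combination replicate 2 the highest. The difference with the combination was 1.53 ± 0.80 (SE, edgeR adjusted p = 0.407), and 0.69 without combination replicate 2. Oas1g had 2.65, 12.4 and 6.54 CPM with the CD40 agonist, 7.47, 4.95 and 0.670 CPM with CSF1Ri, 3.54, 22.8 and 5.999 CPM with the combination, and 7.02, 6.90 and 1.61 CPM in Control. All groups overlapped, and since 55.1% of its 31-base stretches also occur elsewhere, mainly in Oas1a, its counts are uncertain. Oas1a, of whose stretches 68.8% occur elsewhere, is as uncertain, and lay above Control in all 3 combination libraries, at 93.8 to 207.2 CPM against 73.6 to 80.5 CPM. Oasl2, at 14.4 to 56.6 CPM, and Oasl1, at 3.06 to 8.49 CPM, lay wholly below their Control ranges of 71.6 to 115.6 CPM and 10.97 to 17.4 CPM with the CD40 agonist.

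Mx1 and Mx2, GTPases that trap viral nucleocapsids, sat 72.4 kb apart and lay below 0 in all 3 comparisons with Control. With the CD40 agonist Mx2 had 4.59 to 9.71 CPM, wholly below the 10.6 to 17.9 CPM of Control, and Mx1 had 17.1 to 38.4 CPM, which overlapped the 36.8 to 65.0 CPM of Control. With the combination Mx2 ran from 1.61 to 15.4 CPM. Neither gene had combination replicate 2 as its highest library.

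Of the 5 sensors of viral nucleic acid, all lay below 0 with the CD40 agonist (median -0.41), 1 with CSF1Ri and none with the combination (median 0.50). With combination replicate 2 left out, 3 of the 5 lay below 0 with the combination (median -0.11). Zbp1 (ENSMUSG00000027514, chr2:173206612-173218923, minus strand), which senses left-handed nucleic acid and can start necroptosis, had 28.6, 31.1 and 43.3 CPM with the CD40 agonist, 39.7, 42.0 and 40.5 CPM with CSF1Ri, 50.6, 249.6 and 75.5 CPM with the combination, and 48.5, 41.2 and 47.1 CPM in Control. All combination libraries lay above all others, replicate 1 only just. The difference from Control was 1.46 ± 0.47 (SE, edgeR adjusted p = 0.181), and 0.47 without combination replicate 2. Ifih1, the sensor of long double-stranded RNA, had 24.1 to 37.3 CPM with the CD40 agonist, below the 54.0 to 61.6 CPM of Control and the 57.4 to 149.9 CPM of the combination. Ifi204, a sensor of DNA, had 130.7 to 172.0 CPM with the CD40 agonist and 222.1 to 268.4 CPM in Control. It shares 34.1% of its 31-base stretches with other genes. Ddx58 and Dhx58, which sense RNA of viruses and tune that signal, overlapped with Control in all 3 treated groups.

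In the system around the ubiquitin-like protein ISG15, all 5 genes lay below 0 with the CD40 agonist (median -0.54). Usp18, which strips ISG15 from proteins and damps the type I receptor, had 46.2 to 66.4 CPM with the CD40 agonist, 48.6 to 83.2 CPM with CSF1Ri, 80.7 to 133.8 CPM with the combination and 71.3 to 109.4 CPM in Control. The CD40 agonist libraries did not overlap with Control, and the other groups did. Isg15 had 6.38 to 12.5 CPM with the CD40 agonist, 17.1 to 29.4 CPM with the combination and 9.97 to 21.7 CPM in Control. Trim25 (ENSMUSG00000000275, chr11:88999376-89020293, plus strand), a ubiquitin ligase that helps activate the sensor RIG-I, had 69.8, 43.8 and 48.4 CPM with the CD40 agonist, 72.0, 80.0 and 75.0 CPM with CSF1Ri, 50.6, 55.2 and 50.8 CPM with the combination, and 53.1, 68.1 and 54.7 CPM in Control. It was the one member higher than Control in every CSF1Ri library (0.37 ± 0.18, SE, edgeR adjusted p = 0.559), and it went the other way from most of the list against CSF1Ri, with the combination at -0.54 ± 0.18 (adjusted p = 0.158).

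Dtx3l and Parp9 form a complex that adds ubiquitin and ADP-ribose to histones, and their genes overlap by 682 bases on opposite strands, so that reads there cannot be told apart in these unstranded libraries. Dtx3l had 76.5 to 106.8 CPM with the CD40 agonist, 92.6 to 237.1 CPM with the combination and 124.6 to 168.7 CPM in Control. Parp9 and Parp14 overlapped with Control in every treated group. Of the 7 remaining genes, Lgals3bp (ENSMUSG00000033880, chr11:118392751-118402092, minus strand), a secreted glycoprotein, had 28.1, 65.7 and 81.3 CPM with the CD40 agonist, 55.2, 49.5 and 41.1 CPM with CSF1Ri, 92.8, 206.2 and 101.6 CPM with the combination, and 46.3, 78.3 and 54.2 CPM in Control. All combination libraries lay above all others, at 1.16 ± 0.40 from Control (SE, edgeR adjusted p = 0.212) and 0.71 without replicate 2. Rtp4, at 25.3 to 30.5 CPM with the CD40 agonist, lay below its 52.4 to 72.4 CPM in Control. Ifi44 averaged under 5 CPM and ran from 0.354 to 10.7 CPM over the 12 libraries.

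Of 19 ligand genes of type I and type III interferons, 2 had enough counts to be tested, Ifnb1 and Ifnk. Ifnb1, the interferon beta gene, had 12, 18 and 85 counts with the CD40 agonist and 105, 221 and 21 counts with the combination, against 0 counts in all 3 CSF1Ri and all 3 Control libraries. Every library with the antibody held counts and no other library did. Against a floor of 3 counts over the Control group, its level was at least 38.6-fold higher with the CD40 agonist (15.9-fold without CD40 agonist replicate 3) and at least 104-fold higher with the combination (52.2-fold without combination replicate 2). Such floors cover counting error only. Ifnb1 passed no test, with an edgeR adjusted p of 0.0686 for any difference. Ifnk had 0 to 1.34 CPM with the CD40 agonist, 0 to 0.509 CPM with CSF1Ri, 0.169 to 0.599 CPM with the combination and 0.696 to 1.21 CPM in Control, so that CSF1Ri and the combination lay wholly below Control (edgeR adjusted p = 0.813 for any difference). Ifna2, which was not tested, had 13 and 44 counts in combination replicates 2 and 3 and 0 in the other 10 libraries. The CD40 agonist libraries, in which Ifnb1 was counted, were also those whose median over the 38 genes lay wholly below that of Control. Ifnb1 was counted in the combination libraries as well, where that median was -0.35, 0.79 and -0.19. Combination replicate 2, with the most Ifnb1 counts, had the highest median of all 12 libraries.

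Ifng, the interferon gamma gene, had 17.6, 19.5 and 11.3 CPM with the CD40 agonist, 3.09, 3.15 and 7.37 CPM with CSF1Ri, 14.6, 16.0 and 12.4 CPM with the combination, and 4.47, 2.85 and 3.05 CPM in Control. Both groups with the antibody lay above both groups without it, and the test of any difference passed (edgeR adjusted p = 0.0381). Without combination replicate 2 it did not (adjusted p = 0.0524), and over the 12 libraries left out in turn it was kept once, without CSF1Ri replicate 3 (0.0150 to 0.109). Markers of NK cells, a source of interferon gamma, summed to 687.4 to 1516 CPM with the CD40 agonist. They summed to 405.8 to 597.4 CPM with CSF1Ri, 750.9 to 1352 CPM with the combination and 537.5 to 788.6 CPM in Control. T cell markers summed to 95.6 to 150.4 CPM with the CD40 agonist and 45.2 to 58.6 CPM with CSF1Ri. With the combination they summed to 55.3 to 80.9 CPM, and in Control to 94.9 to 124.4 CPM. The part of T cells and NK cells in the result was not tested. The markers of plasmacytoid dendritic cells, known for making type I interferon, summed to 48.2 CPM in combination replicate 2, the lowest of the 12 libraries, of which the highest was 127.8 CPM.

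Of 6 receptor genes, 1 changed. Ifngr1, the binding chain of the interferon gamma receptor, fell to 733.3, 749.0 and 712.0 CPM with the combination, against 1104, 1198 and 1040 CPM in Control (-0.61 ± 0.09, SE, edgeR adjusted p = 0.0186). It also fell against CSF1Ri, at 1099, 1100 and 1076 CPM (-0.58 ± 0.09, adjusted p = 0.0129). The 3 combination libraries lay close together here and below all 9 others. Without combination replicate 2 the differences were -0.62 and -0.59 (adjusted p = 0.0175 and 0.0131). The call against Control was lost without any 1 of the Control libraries (adjusted p up to 0.0886), and that against CSF1Ri without replicate 1 or 2 of CSF1Ri (up to 0.0585). Ifnar1, a chain of the type I receptor, had 71.4 to 152.3 CPM with the CD40 agonist, 75.9 to 153.5 CPM with CSF1Ri, 104.0 to 159.9 CPM with the combination and 100.9 to 139.4 CPM in Control. Ifnar2, the other chain, had 75.5 to 97.3 CPM, 85.2 to 118.2 CPM and 77.5 to 86.0 CPM in those treated groups and 61.3 to 83.3 CPM in Control.

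None of 6 transducer genes was called in any comparison. Stat2, part of the complex that answers type I interferon, had 32.3 to 54.9 CPM with the CD40 agonist, 48.5 to 107.4 CPM with CSF1Ri, 48.8 to 93.0 CPM with the combination and 62.9 to 91.7 CPM in Control. Irf9, its DNA-binding partner, had 109.3 to 121.1 CPM, 138.9 to 154.7 CPM and 88.8 to 143.6 CPM in those treated groups and 129.1 to 143.7 CPM in Control.

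Irf7, which amplifies type I interferon and is itself induced by it, had 59.3, 71.1 and 69.2 CPM with the CD40 agonist, 147.5, 103.9 and 111.2 CPM with CSF1Ri, 47.2, 220.9 and 93.8 CPM with the combination, and 126.1, 151.2 and 126.3 CPM in Control. The CD40 agonist libraries lay below all of Control (-1.02 ± 0.42, SE, edgeR adjusted p = 0.626). None of 14 inducing sensors and adaptors and none of 7 negative regulators was called. Socs1, a brake on JAK kinases, stayed between 0.825 and 3.45 CPM in all libraries.

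**Figure D5:**
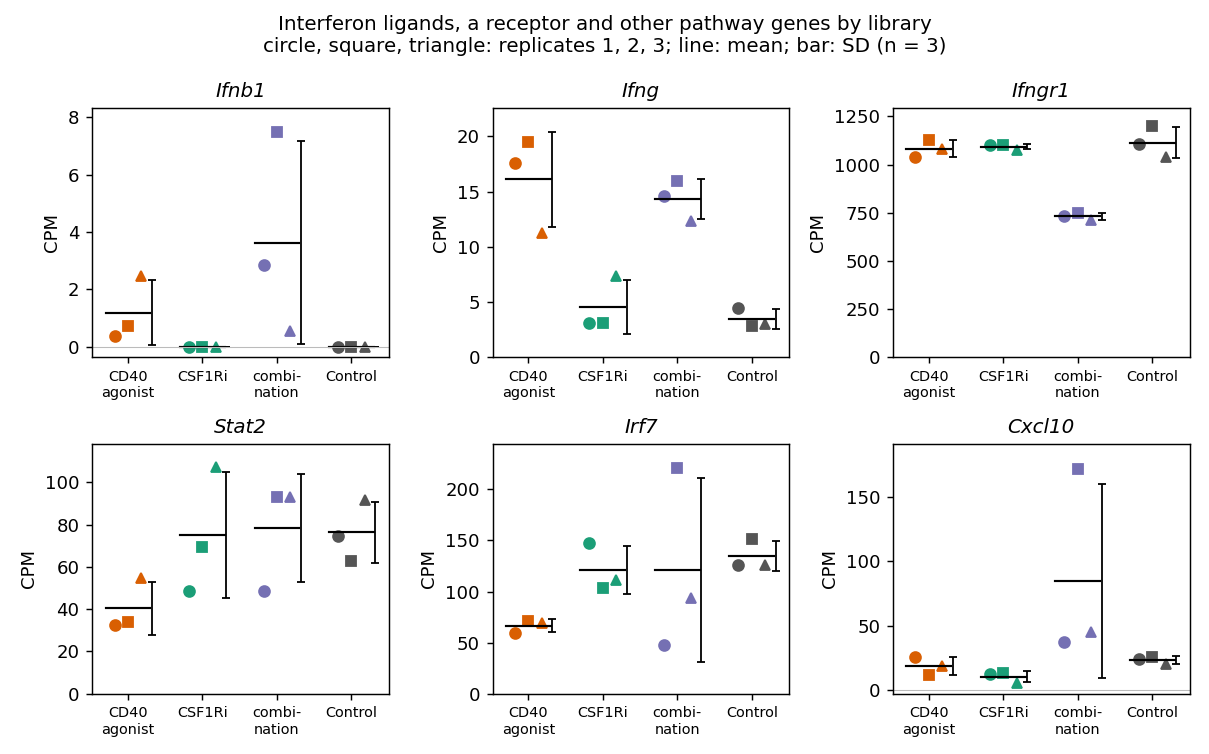
CPM (vertical axis) of Ifnb1, Ifng, Ifngr1, Stat2, Irf7 and Cxcl10 in each library, by group, with the mean (line) and SD (bar) of 3 libraries. Ifnb1 is at 0 in CSF1Ri and Control, and Ifngr1 lies at 712.0 to 749.0 CPM in the combination and at 1038 CPM or above elsewhere.

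Genes known for their response to interferon gamma are a list that overlaps in biology with the 38. Of 23, 7 rose with the combination against CSF1Ri (Ciita, Gbp2, Cxcl10, Irf8, Iigp1, Tgtp1 and Psmb9) and 0 fell, where 1.24% of all genes rose, and none was called against Control, although 22 of 23 lay above 0 there. Cxcl10, a chemokine for T cells, had 37.4, 172.4 and 44.8 CPM with the combination, against 12.4, 12.7 and 5.22 CPM with CSF1Ri (3.07 ± 0.60, SE, edgeR adjusted p = 0.0334). Ciita, the master regulator of MHC class II, had 90.03, 124.0 and 107.1 CPM with the combination, against 49.1, 43.9 and 55 CPM with CSF1Ri (1.12 ± 0.20, adjusted p = 0.0250). In both genes every combination library lay above every CSF1Ri library. Without combination replicate 2 these 2 of the 7 were still called, at 2.03 for Cxcl10 and 1.0 for Ciita (adjusted p = 0.0361 and 0.0392). Leaving out each library in turn, the call of Ciita was kept in 9 of 12 cases and lost without combination replicate 3 or CSF1Ri replicate 1 or 2, and that of Cxcl10 was kept in 5 of 12. The other 5 were called in 0 to 2 of 12 cases. The summed level of the 23 genes was 3622, 11460 and 4311 CPM in the combination libraries and 2523 to 3014 CPM in Control, so that all 3 lay above Control. The summed level of the 38 interferon stimulated genes was 2873, 7317 and 3384 CPM in the same combination libraries and 3848 to 3898 CPM in Control, so that 2 of the 3 lay below.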

How the data were processed

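RNA was sequenced from 12 libraries of pooled tumors. Reads were aligned with STAR to mm10, counted with HTSeq and compared with DESeq2, per the submitters' processing notes. The deposited files instead list transcripts, each with its estimated count, TPM value, length and effective length, per the file headers. The sources used here name neither the quantifier nor its annotation. The deposited estimated counts carry no normalization. The deposited TPM values sum to 1000000 per library and served only to compare levels between genes. Of 111462 transcripts, 110203 matched GENCODE M21. Estimated counts were summed per gene and rounded. A single model of the 4 groups was fitted to the 12 libraries in edgeR 4.0.16 under R 4.3.3. It used TMM scaling, the filterByExpr filter and the robust quasi-likelihood F-test (8 residual degrees of freedom), and a gene was called where its p, adjusted over the 16027 genes tested by the method of Benjamini and Hochberg, lay below 0.05. SE was derived as the absolute log2 difference divided by the square root of its F statistic. The common biological coefficient of variation was 61%. Library values in log2 use a prior count of 2. Libraries are unstranded, so overlapping genes cannot be told apart.

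Described in full were members called in any comparison and, in each comparison with Control and in the interaction, the 3 highest and 3 lowest among members averaging at least 5 CPM. Pathway genes called, and Ifnb1, Ifng, Ifnar1, Ifnar2, Stat2, Irf9, Irf7 and Socs1, were also named, and one other gene of that rule is not reported here. Members and lists were chosen with earlier results of these data known. Alternatives were another scaling, no filter, DESeq2 1.42.0, limma 3.58.1 voom, the bias-adjusted edgeR fit, a replicate block, fewer libraries and summed near-copies. The summed near-copies, and the role groups and unadjusted or non-overlap counts without 1 library, were chosen after seeing the data. Lanes are not matched to libraries in the sources used here, so lane was not tested.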

Additional observations from a re-analysis of the deposited data

How the results depend on the processing

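Several alternatives called more members than edgeR did. The shares of all genes that they called, or that were called with libraries left out, are not given here. The counts in this section therefore describe the settings and are not a result about the list. DESeq2's test called against Control 2 members for the CD40 agonist, 3 for CSF1Ri and 2 for the combination, 3 with the combination against the CD40 agonist, 4 against CSF1Ri, 2 in the interaction and 6 for any difference. limma voom called 1 with the combination against Control. The bias-adjusted edgeR fit called 1 with the combination against Control, 1 against CSF1Ri and 2 for any difference, and only the 6 CD40 agonist and Control libraries gave 2. Without both CSF1Ri replicate 3 and combination replicate 2 there were 1, 1 and 1 against Control, 2 for the combination against CSF1Ri, 1 in the interaction and 5 for any difference, and the list's median was -0.26 for the combination against Control, 0.20 against the CD40 agonist, -0.19 against CSF1Ri and 0.36 in the interaction.

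With each library left out in turn, members called ran from 0 to 1 for both single agents against Control, from 0 to 1 for the combination against CSF1Ri and in the interaction, and from 0 to 2 for any difference. The list's median ran from -0.26 to 0.47 for the combination against Control, 0.20 to 0.98 against the CD40 agonist, -0.10 to 0.76 against CSF1Ri and 0.47 to 1.2 in the interaction, the lowest each time without combination replicate 2. Against Control it ran from -0.57 to -0.38 with the CD40 agonist and from -0.28 to -0.14 with CSF1Ri. Of the differences by which genes were picked for full description, those that changed sign were Oas1g (-0.17 to 0.88), Eif2ak2 (-0.11 to 0.31, with -0.01 and -0.05 on the way) and Bst2 (-0.021 to 0.29) with the CD40 agonist, and Isg20 (-0.23 to 0.69, and -0.0043 by limma voom) with CSF1Ri. The cause was not tested. Over all 38 genes, leaving out combination replicate 2 put 29 below 0 against Control, where 11 were with it, and 23 against CSF1Ri, where 9 were. With Oas1a and Oas1g summed, the unadjusted interaction p of Oas1a was 0.0693.

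To look for pairing, each gene's log2 CPM was taken less the mean of its group. Correlations of these deviations between same-numbered libraries lay between -0.061 and 0.060, with 0 of 18 above 0.1. On the same deviations, however, 7 of 12 libraries correlated best, among libraries of other groups, with their own number. Whether replicate numbers pair the samples was thus not settled. With the replicate block, 0 members were called for any difference (Ifit3, edgeR adjusted p = 0.0794), and 0 in the other comparisons. The lowest counts in any library were those of Ifi44, Oasl1 and Oas1g, each with under 1 CPM in at least 1 library. Oasl1 had 6 counts (0.175 CPM) in CSF1Ri replicate 3, against 470 and 731 counts in CSF1Ri replicates 1 and 2. CSF1Ri replicate 3 was the deepest library of its group, at 32880763 estimated counts.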
